A study of Solanum lycopersicum with 18 samples.

Results

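The Aux/IAA genes described here are *IAA9*, which is *ENTIRE*, together with *IAA1*, *IAA2*, *IAA3*, *IAA4*, *IAA7*, *IAA14*, *IAA17*, *IAA19* and *IAA27*. They were chosen by gene identifier and not by any measured value. All 10 were found, among the 35825 genes of the deposited RNA-seq table. The series compares tomato (*Solanum lycopersicum*) *crel* mutants with wild type of the M82 cultivar, in shoot apices with expanding leaves taken from plants 28 days old. *CREL* encodes a VIL protein, a PHD-finger protein of the kind that brings Polycomb Repressive Complex 2 (PRC2) to its targets. RNA was sequenced from 7 *crel* libraries, of which 2 are labelled *crel-2*, 3 *crel-1* and 2 *crel-3*, and from 3 wild-type libraries. H3K27me3, the histone mark that PRC2 deposits, was mapped in 2 *crel* and 2 wild-type replicates. The study names the *crel* line of the ChIP as *crel-2*, a fast neutron allele that lacks part of the gene. A supplementary table of the study gives other allele names than the labels for the lines labelled *crel-1* and *crel-3*, and the label names are used here. The *crel-1* mutation was first found in plants that also carried an *entire* mutation, and single *crel-1* plants were obtained by a cross to wild type and then backcrossed repeatedly to M82. The other *crel* alleles come from mutant populations made in M82. The supplementary name of the line labelled *crel-1* is that of one of these other alleles. The Methods of the study give the RNA-seq alleles as *crel-1*, *crel-2* and *crel-3*, as the labels do. If the supplementary name is the right one, libraries labelled *crel-1* may not descend from the plants with the *entire* mutation. Which name is right was not settled here.

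Aux/IAA proteins are short-lived repressors of auxin-responsive transcription. They bind auxin response factors (ARFs) through their C-terminal domains and recruit TOPLESS corepressors through an N-terminal motif. Auxin brings a conserved stretch of the protein, the domain II degron, to TIR1/AFB F-box receptors, after which the repressor is degraded and the ARFs are released. Many *Aux/IAA* genes are themselves transcribed in response to auxin. In the tomato leaf, ENTIRE restrains blade growth between initiating leaflets, and plants without it form simplified leaves.

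The RNA-seq table gives a single level for each gene, the authors' mean normalized count over all 10 libraries, *crel* and wild type together. It has no column for a single library. No spread over replicates could therefore be computed, and no difference between *crel* and wild type was tested for any of the 10 genes. The columns that hold the authors' own comparison of the genotypes were not used. A mean count is a number of reads assigned to a gene, and it grows with the length of the transcript as well as with its abundance. Transcript lengths of the annotation used were not held, so the order given below is an order of reads per gene and not of transcript abundance. The pooled means sum to 17277983 reads over all genes, which is the size of an average library on this scale, and the depth of single libraries is not in the table.

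*ENTIRE* (*IAA9*, Solyc04g076850) took the most reads of the 10 genes. Its authors' mean was 3330 normalized counts, higher than that of 98.2% of all genes in the table. Only 646 genes of the table, *ENTIRE* included, had a mean as high or higher. Of the reads assigned to the 10 Aux/IAA genes, 54.5% were assigned to *ENTIRE*, which is 193 CPM (counts per 1000000 reads assigned to genes, from the pooled means). The whole group of 10 took 354 CPM. The median gene of the table had a mean of 32.3 normalized counts, so *ENTIRE*, the gene in whose mutant *crel* was found, received 103 times as many reads as the median gene. That multiple depends on the genes included, since among genes with a mean of at least 10 the median was 169 normalized counts. *ENTIRE* lay above 97.2% of these genes.

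The next largest numbers of reads came from *IAA14* (Solyc09g083290), with an authors' mean of 1021 normalized counts, and *IAA4* (Solyc06g053840), with 682. In Arabidopsis, the gene named *IAA14* is known as *SOLITARY-ROOT* and controls the founding of lateral roots. The means of *IAA14* and *IAA4* lay above those of 91.6% and 87.2% of all genes. Together with *ENTIRE*, these genes received 82.3% of the reads of the group, and the other 7 received 17.7%. *ENTIRE* received 3.26 times as many reads as *IAA14* and 4.88 times as many as *IAA4*.

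A middle set of 5 genes had authors' means between 125 and 394 normalized counts. *IAA1* (Solyc09g083280) had 394 and *IAA27* (Solyc03g120500), which affects fruit and root development and chlorophyll content in tomato, had 229. *IAA19* (Solyc03g120380) had 147. *IAA17* (Solyc06g008590), which limits fruit size in tomato, had 143 and *IAA7* (Solyc06g053830) had 125. The means of *IAA19* and *IAA17* differed by a factor of 1.03 and those of *IAA17* and *IAA7* by a factor of 1.14, and without replicate values it cannot be said whether neighbours in this order differ. In the whole table these 5 genes lay above between 63.9% and 79.9% of all genes. Among genes with a mean of at least 10, *IAA19*, *IAA17* and *IAA7* lay above only 47.1%, 46.5% and 43.8%, and so below the median gene, whereas *IAA1* and *IAA27* were above 68.7% and 56.7%.

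*IAA3* (Solyc09g065850), which in tomato links auxin with ethylene responses, had an authors' mean of 44.7 normalized counts. *ENTIRE* received 74.5 times as many reads. The mean of *IAA3* still lay above that of 53.2% of all genes in the table, so 9 of the 10 Aux/IAA genes took more reads than the median gene. The median of the 10 means was 188 normalized counts. How far this holds depends on the genes they are set against. The table includes many gene models with few or no reads, and against the 13431 genes whose identifiers are of version 3, as those of all 10 members are, the median was 230 and 4 of the 10 lay above it, *ENTIRE*, *IAA14*, *IAA4* and *IAA1*. *IAA27* lay above 49.9% of this set, *IAA19*, *IAA17* and *IAA7* above 39.5%, 38.9% and 36.3%, and *IAA3* above 21.9%. Among genes with a mean of at least 10, *IAA3* lay below the median as well. The set of version 3 identifiers was chosen after the values were seen.

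*IAA2* (Solyc06g084070) is listed at 0. It was the only one of the 10 genes without a mean above 0. Among all genes, 1402, or 3.91%, are listed at 0, and among the genes with identifiers of version 3 these are 180, or 1.34%. The 5 identifiers on each side of *IAA2* all had means above 0, from 0.320 to 371 normalized counts, and of the 20 on each side 1 was at 0. A mean of exactly 0 was therefore not shared by the 5 identifiers on each side. Some of these were close to 0 all the same, and their median was 9.59 normalized counts. DESeq2 can replace a single outlying count in a group of 7 or more libraries before the mean is taken, and whether this was done here is not stated. A mean of 0 thus does not settle whether a single *crel* library held reads of the gene.

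**Figure D1:**
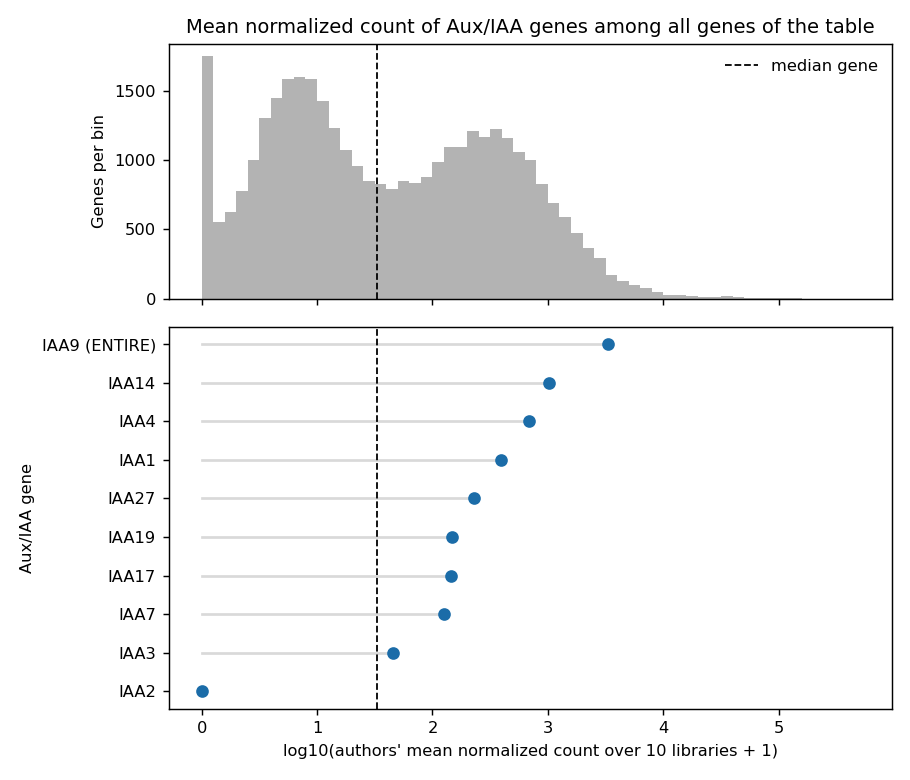
Authors' mean normalized count over 10 RNA-seq libraries (7 *crel* and 3 wild type, pooled), as log10 of the mean plus 1 on the horizontal axis. The upper panel counts all 35825 genes in bins, the lower panel has 1 point for each Aux/IAA gene, and the dashed line is the median gene. *ENTIRE* lies far to the right at 3330, *IAA3* just right of the dashed line at 44.7, and *IAA2* at 0. There are no error bars, because the table holds no value for a single library.

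The 10 identifiers lie on 4 chromosomes, with 2 on chromosome 3, 1 on chromosome 4, 4 on chromosome 6 and 3 on chromosome 9. The RefSeq annotation of assembly SLM_r2.1, which was used for names and gene order only, has 8 of the 10 names, and all 8 are on the chromosome that the identifier gives. *IAA1* and *IAA14* were not matched by name. *IAA7* and *IAA4* have consecutive identifiers, and in RefSeq no protein-coding gene lies between them. *IAA4* received 5.45 times as many reads as *IAA7*, its neighbour. *IAA1* and *IAA14* also have consecutive identifiers, and *IAA14* received 2.59 times as many reads as *IAA1*. *IAA19* and *IAA27* are separated by 10 identifiers of the table and by 11 protein-coding genes of RefSeq, and *IAA27* received 1.56 times as many reads as *IAA19*.

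Set against the identifiers next to them, the Aux/IAA genes fell into unlike positions. *IAA14* received more reads than all 10 genes within 5 identifiers of it, and *ENTIRE* and *IAA4* more than 9 of 10. *IAA1* exceeded 8 of its 10 neighbours and *IAA17* 7, whereas *IAA27* exceeded 5. *IAA7* exceeded 4 of its 10 neighbours, *IAA19* exceeded 3, *IAA3* exceeded 2 and *IAA2* exceeded none. With 20 identifiers on each side, *ENTIRE* was above 39 of 40, with a neighbour median of 156 normalized counts, and *IAA14* and *IAA4* were each above 36 of 40. *IAA1* was above 28 and *IAA17* above 27, with *IAA7* above 22 of 40 in this wider window, more than it was below. *IAA27* was above 18 of 40, *IAA19* above 17, *IAA3* above 13 and *IAA2* above none. The place of a gene among its neighbours thus depended on the window for *IAA7*, and *IAA14* exceeded all its neighbours only in the narrow one. *IAA1* and *IAA14* are counted as neighbours of each other, as are *IAA4* and *IAA7*, and in the wider window *IAA19* and *IAA27*. The other neighbours are unlike genes, and all are of unknown transcript length and serve only as a picture of the surrounding reads.

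**Figure D2:**
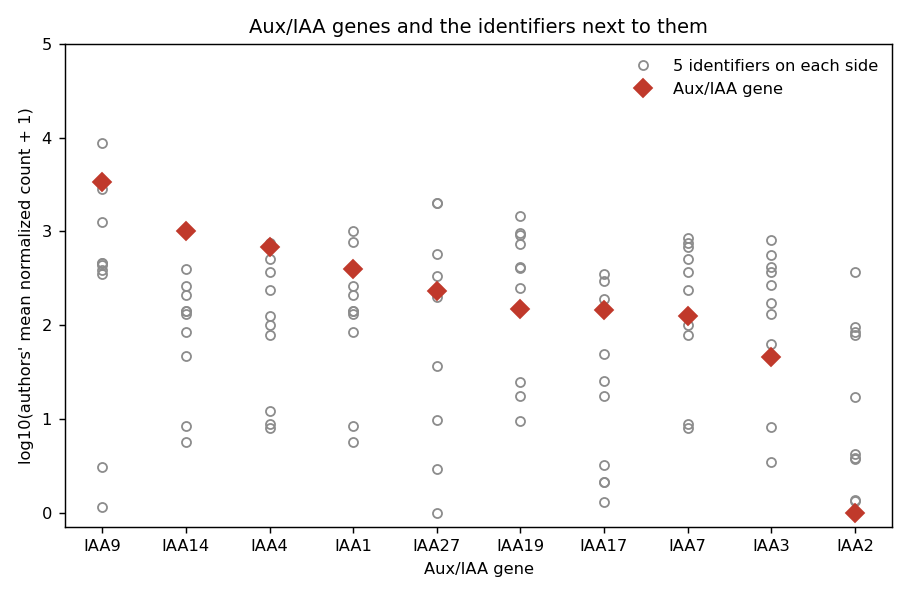
Each Aux/IAA gene (filled diamond) with the 5 identifiers on each side of it in the table (open circles), as log10 of the authors' mean normalized count plus 1, the genes ordered by their own mean. *ENTIRE*, *IAA14* and *IAA4* stand at or near the top of their columns, and *IAA2* is at 0 below all of its neighbours.

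*CREL* itself (Solyc05g018390) had an authors' mean of 376 normalized counts, close to that of *IAA1* in reads per gene. Since this mean pools mutant and wild-type libraries, it could not be used to check the genotype labels. The tissue label was not checked against marker genes either, since the table gives identifiers without names. Other Aux/IAA genes, ARFs and TIR1/AFB receptors are not described for the same reason. RefSeq names 10 further IAA genes, but none of the 35825 identifiers of the table is in RefSeq.

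H3K27me3 at the 10 genes was not analysed here. The sequence names of the deposited peaks are those of SL2.40, while the Methods name SL3.0. No annotation of SL2.40 was held by which a peak could be placed at a gene. The study itself assigned lost and gained sites to the gene with the nearest transcription start, and that assignment was not used here. The comparison made here is that of the chromosomes on which the genes lie. On chromosomes 3, 4, 6 and 9 together, peaks covered 14.4 and 15.3 Mb in the *crel-2* replicates, against 20.8 and 19.9 Mb in the wild-type replicates. The *crel-2* mean of 14.8 Mb was 72.9% of the wild-type mean of 20.4 Mb, and the genotypes did not overlap. An exact two-sided permutation test gave p = 0.333, the smallest value that 2 against 2 replicates allow, so significance could not be reached. The lists held 2865 and 2910 peaks on these chromosomes in *crel-2*, against 6156 and 5609 in wild type. The authors identified peaks in each replicate separately, and their Methods mention scaling of reads to the lowest depth only after that step. No adjustment for library depth or ChIP enrichment was made here, and whether these contribute to the difference between genotypes was not tested.

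Each of the chromosomes showed a smaller covered length in both *crel-2* replicates than in both wild-type replicates. The same was true of each of the 8 chromosomes without any of the 10 genes, so it was not particular to these chromosomes. Sequence listed as chromosome 0 went the other way, with 0.928 and 0.952 Mb in *crel-2* against 0.891 and 0.852 Mb in wild type. On chromosome 4, which carries *ENTIRE*, coverage was 3.77 to 4.06 Mb in *crel-2*, against 5.12 to 5.32 Mb in wild type. The *crel-2* mean was 75.0% of the wild-type mean there, 70.0% on chromosome 3, 72.4% on chromosome 6 and 74.4% on chromosome 9. On the 8 chromosomes without any of the 10 genes it was 74.4%, a comparison added after the values were seen and that was not tested against the others. Covered length of a whole chromosome says nothing about single genes on it.

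**Figure D3:**
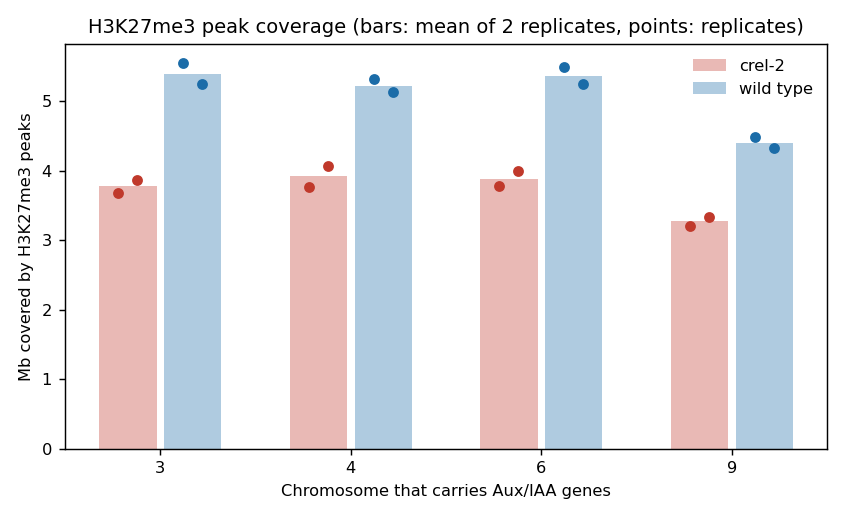
Length covered by H3K27me3 peaks in Mb on the 4 chromosomes that carry the Aux/IAA genes, with *crel-2* left of wild type. Bars are the means of 2 replicates and points are the replicates. On each of these chromosomes both *crel-2* points lie below both wild-type points, with 3.77 to 4.06 Mb against 5.12 to 5.32 Mb on chromosome 4.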

How the data were processed

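Total RNA and H3K27me3 ChIP libraries were made from shoot apices. For RNA-seq the authors used Trimmomatic for trimming, STAR for alignment to SL3.0, featureCounts for counting per gene and DESeq2 for the fit. The deposited mean is a signal the authors computed, counts divided by size factors and averaged over 10 libraries. The other 6 columns of the deposited table hold the authors' comparison of *crel* with wild type (log2 fold change, its standard error, statistic, p-value, adjusted p-value and call) and were not used. For ChIP-seq the authors aligned reads with Bowtie2, set a minimum mapping quality, dropped duplicates with SAMtools and ran HOMER peak calling on each replicate. The deposited lists hold the start and end of each peak, without height or depth. The Methods name SL3.0 for them as well, while the sequence names are those of SL2.40. Versions of these tools are not given in the sources used here. The 4 input libraries were not used.

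Percentiles are the share of genes with a lower mean, and covered length is the union of the peaks. Replicates were taken from the labels. Python 3.11.15, numpy 2.4.6, pandas 2.3.3 and matplotlib 3.10.9 were used, and the percentiles and covered lengths were tested on simulated data. The genes and lists were chosen with earlier results of these data known. All 10 Aux/IAA genes and *CREL* are named. A planned count test, a division by coding length, peaks at genes and protein and promoter sequences could not be had, as neither counts per library nor a matching annotation or sequence was held. The study describes the replicates of both assays as biological and does not say whether each came from a separate harvest.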

Additional observations from a re-analysis of the deposited data

How the results depend on the processing

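Of the 10 Aux/IAA genes, 9 lay above the median gene of the whole table, and 9 did so among genes with a mean above 0. Among genes with a mean of at least 10 the number was 5, and among identifiers of version 3, a set chosen after seeing the data, it was 4. The first of these sets leaves out genes with few reads by construction. The second still holds 180 genes at 0, and its median was 230 normalized counts, against 32.3 in the whole table. The smaller coverage of *crel-2* on the chromosomes of these genes kept its direction in number of peaks, with peaks of at least 1000 bp, and with a replicate left out, where the difference of *crel-2* minus wild type ran from -5.98 to -5.08 Mb against -5.53 Mb with all replicates. In number of peaks *crel-2* had 49.1% of wild type and in covered length 72.9%. With a replicate block the difference was -5.53 Mb (exact sign permutation, p = 0.5, the smallest that 2 pairs allow). No test of *crel* against wild type at the 10 genes, no division by coding length, no placing of peaks at genes and no motif search was run, so their alternatives were not run either.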
